A study of Mus musculus with 14 samples.

Results

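Pdx1 encodes a homeodomain transcription factor, and its transcript was followed here across the 3 genotypes of a study of mouse pancreatic islets. Its row was the 1 transcript cluster annotated to the symbol Pdx1, so it was 1 of 19938 genes measured. Gene expression was read on 14 Mouse Gene 1.0 ST arrays of islet RNA, 1 array per sample. All mice were 11 weeks old, untreated, and of the strain C57BL/6 and NMRI (1:1).

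The 5 IKK2-CA samples came from mice labelled IKK2-CApdx-1, which the labels call diabetic. They made constitutively active IKK2, an NF-κB-activating kinase, in β-cells through the driver Pdx-1-tTA. The 4 Pdx-1+/- samples came from mice in which the driver Pdx-1-tTA leaves 1 working copy of Pdx-1. The driver allele is therefore shared by both mutant groups. The 5 control samples are described by the labels only as control. The driver is active where the Pdx1 gene is active, which is not every islet cell and not islets alone. Whether the array's Pdx1 probes lie in the stretch that the driver allele replaces could not be looked up here, so the Pdx1 level alone does not check the genotypes. Nothing in the labels tells separate mice from repeats of 1 mouse, so p-values measure only the spread between samples, which may be technical.

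During development PDX1 is needed for the pancreas to form. In the adult islet it is kept on mainly in β-cells and in the somatostatin-making δ-cells. There it binds the TAAT core of promoters and enhancers with partner factors, and it turns on insulin, islet amyloid polypeptide and genes of glucose uptake. Upstream of it, FOXA2, NEUROD1, NKX2-2 and MAFA act on conserved enhancers of the Pdx1 gene. Loss of 1 copy impairs insulin secretion in mice, and in people heterozygous mutations cause a form of inherited early-onset diabetes.

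The promoters of Pdx1 and of 3 of its textbook targets are shown, the targets to illustrate how the TAAT core is spread in windows that hold it. Of the 3 targets only Slc2a2 passed the slope test below. Each is the 250 bases before the RefSeq transcription start, 5′ to 3′ on the gene's own strand, from GRCm38.p6. The windows are chr5:147269847-147270096 on the plus strand for Pdx1, chr3:28697653-28697902 on the plus strand for Slc2a2, chr6:142298175-142298424 on the plus strand for Iapp and chr16:23890845-23891094 on the minus strand for Sst. Capitals mark TAAT on either strand in the 3 targets and the E-box CACGTG, a letter pattern bound by basic helix-loop-helix factors, in Pdx1.
Pdx1: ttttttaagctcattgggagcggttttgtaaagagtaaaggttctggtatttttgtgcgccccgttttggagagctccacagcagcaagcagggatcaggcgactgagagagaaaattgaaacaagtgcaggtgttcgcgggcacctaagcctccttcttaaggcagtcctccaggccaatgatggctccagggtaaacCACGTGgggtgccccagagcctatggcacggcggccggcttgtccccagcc
Slc2a2: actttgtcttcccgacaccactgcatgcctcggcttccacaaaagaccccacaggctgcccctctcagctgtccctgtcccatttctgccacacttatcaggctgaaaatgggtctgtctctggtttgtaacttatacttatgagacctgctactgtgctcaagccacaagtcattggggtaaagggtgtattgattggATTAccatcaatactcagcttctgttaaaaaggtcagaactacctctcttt
Iapp: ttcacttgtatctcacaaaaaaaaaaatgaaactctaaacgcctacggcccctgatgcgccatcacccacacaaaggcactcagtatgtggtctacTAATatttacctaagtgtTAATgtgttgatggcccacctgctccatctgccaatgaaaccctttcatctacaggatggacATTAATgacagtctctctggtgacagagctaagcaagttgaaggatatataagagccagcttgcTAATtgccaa
Sst: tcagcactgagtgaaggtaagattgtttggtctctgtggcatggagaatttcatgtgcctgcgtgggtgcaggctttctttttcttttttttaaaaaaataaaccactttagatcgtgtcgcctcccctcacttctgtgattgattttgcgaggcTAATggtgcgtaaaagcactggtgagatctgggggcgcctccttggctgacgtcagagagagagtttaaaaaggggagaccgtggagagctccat
The E-box of Pdx1 began 51 bases before the start. TAAT was found 5 times in the Iapp window, at 154, 136, 74, 72 and 10 bases before the start, 2 of which overlap on opposite strands. The Slc2a2 window held 1 match at 51 bases and the Sst window 1 at 95 bases. Among 32851 RefSeq promoter windows of the same length, 54.9% held TAAT at least 1 time, 5.54% held it 5 or more times, and 6.0% held CACGTG. Of 15 measured targets 11 had a window in the table, and 5 of those 11 held TAAT. A match is a description of the letters and not a bound site.

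The samples read as islet RNA with other cells present. The mean log2 level of 6 β-cell markers (Ins2, Iapp, Slc2a2, Mafa, Nkx6-1 and Ucn3) was 8.99 to 10.12 in IKK2-CA, 9.637 to 9.968 in Pdx-1+/- and 10.09 to 10.91 in control islets. The mean of 12 acinar markers lay between 12.11 and 12.72 on all 14 arrays, so exocrine RNA was present throughout. RNA of other tissues stood out on 3 arrays. On Pdx-1+/- array 4 and control array 3 the mean of 16 intestinal markers stood 2.78 and 1.27 log2 above its mean over the 14 arrays, against -0.46 to -0.23 on the rest. On IKK2-CA array 5 the mean of 9 adipocyte markers stood 2.32 above, against -0.57 to 0.40 elsewhere. Array medians over the 19938 genes lay between 6.453 and 6.551. Bulk islet RNA cannot tell fewer β-cells from less Pdx1 RNA per β-cell, and that holds for every value below.

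**Figure D1:**
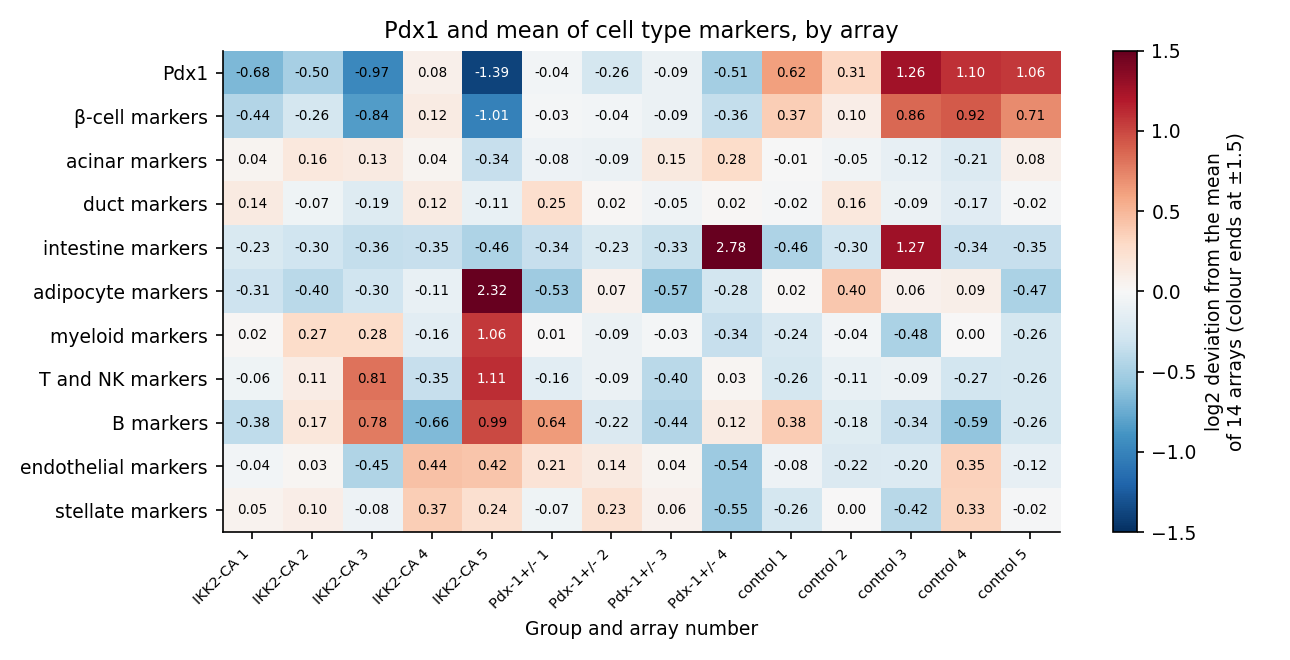
Each row is Pdx1 or the mean of a marker list and each column an array, with IKK2-CA, Pdx-1+/- and control arrays from left to right; colour and number give the deviation, in log2, from the 14-array mean. The Pdx1 and β-cell rows run together, both lowest on IKK2-CA array 5, and the intestinal and adipocyte rows pick out single arrays.

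By group mean Pdx1 was lowest in IKK2-CA, next in Pdx-1+/- and highest in control islets, but the mutant groups did not differ beyond their spread. Its log2 level was 6.68, 6.86, 6.39, 7.44 and 5.97 on IKK2-CA arrays 1 to 5. On Pdx-1+/- arrays 1 to 4 it was 7.32, 7.10, 7.27 and 6.85. On control arrays 1 to 5 it was 7.98, 7.67, 8.62, 8.46 and 8.42. Every array of both mutant groups lay below every control array. Between the mutant groups the values overlapped, because IKK2-CA array 4 read higher than all Pdx-1+/- arrays and IKK2-CA array 2 was just above Pdx-1+/- array 4. The group means were 6.67 ± 0.55 (SD, n = 5) in IKK2-CA, 7.14 ± 0.21 (SD, n = 4) in Pdx-1+/- and 8.23 ± 0.39 (SD, n = 5) in control islets.

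**Figure D2:**
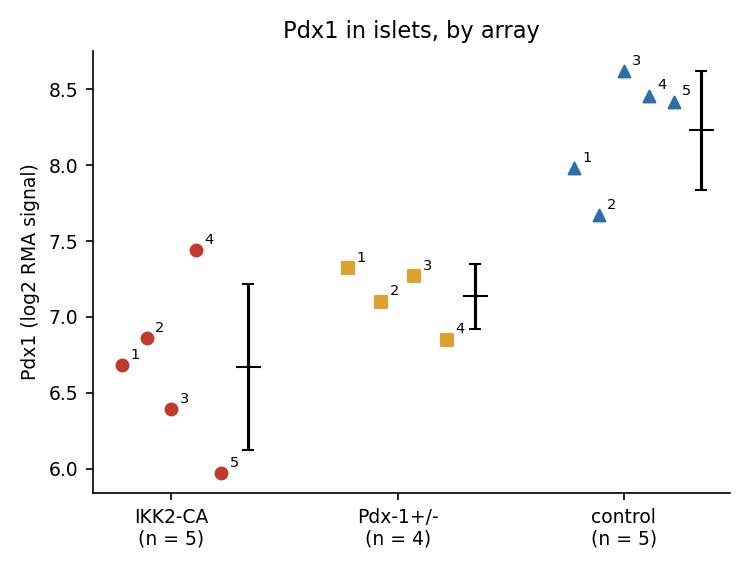
Points are the log2 RMA level of Pdx1 on each array, numbered within its group, and bars are the group mean with its SD (n = 5 IKK2-CA, n = 4 Pdx-1+/-, n = 5 control). No mutant array reaches the lowest control array at 7.67, while the IKK2-CA arrays spread from 5.97 to 7.44 around the Pdx-1+/- arrays.

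In Pdx-1+/- islets, the question was how much transcript remains when 1 copy works. The Pdx1 signal was 46.8% of the control signal (95% confidence interval 32.3% to 68.0%), a log2 difference of -1.09 (SE 0.25). The groups did not overlap, and the exact two-sided permutation test gave p = 0.0159, the smallest that 4 against 5 arrays allow. In limma's test the unadjusted p was 0.000612, and the adjusted p over all genes was 0.21, so Pdx1 did not pass as a gene-wide call. Only 19 of 19938 genes, 0.0953%, passed in this comparison, all of them lower in Pdx-1+/- islets. Pdx1 also did not pass in 11 of 13 alternative fits. Nor did it pass when any single array was left out, with limma adjusted p of 0.0739 to 0.62. The exceptions were limma's array weights, at -1.13 with an adjusted p of 0.0121, and myeloid and T-cell marker levels as a covariate, at -1.03 with 0.0369. That covariate was added after the data were seen.

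In IKK2-CA islets the Pdx1 signal was 33.8% of the control signal (95% confidence interval 23.8% to 48.1%). It fell by 1.56 on the log2 scale (SE 0.24, limma adjusted p = 0.0048), and the exact permutation p was 0.00794, the smallest that 5 against 5 arrays allow. Of all genes 2.25% passed in this comparison, 312 lower (1.56%) and 136 higher (0.682%). Leukocyte marker levels differed between these arrays: the myeloid mean stood -0.16 to 1.06 log2 from its overall mean on IKK2-CA arrays and -0.48 to 0.00 on control arrays. With these myeloid and T-cell marker levels in the fit the Pdx1 difference was -1.05, with an adjusted p of 0.0679.

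Active IKK2 and diabetes on top of the shared driver allele were compared by setting IKK2-CA against Pdx-1+/- islets. Pdx1 read 72.2% of the Pdx-1+/- signal (95% confidence interval 49.8% to 105%), a log2 difference of -0.47 (SE 0.25, limma adjusted p = 0.79, exact permutation p = 0.151). The difference was within the spread between arrays, and the interval holds both no difference and a signal as low as 49.8%. With the myeloid and T-cell marker levels in the fit, added after the data were seen, it was -0.02, close to no difference. Within groups Pdx1 had an r of -0.65 with the myeloid mean and -0.76 with the T and natural killer mean. This fit therefore cannot separate Pdx1 from the leukocyte markers. Without IKK2-CA array 4 it was -0.66, and without IKK2-CA array 5 it was -0.30. In this comparison 15 genes passed, 0.0752% of all genes, all of them higher in IKK2-CA islets.

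Pdx1 also varied widely inside the groups. From the lowest to the highest array it spanned 2.76-fold in IKK2-CA, 1.38-fold in Pdx-1+/- and 1.93-fold in control islets. Its SD exceeded that of 96.3% of genes in IKK2-CA and of 96.0% of genes in control islets, and of 67.8% in Pdx-1+/- islets. The median SD of a gene was 0.172 in IKK2-CA, 0.158 in Pdx-1+/- and 0.143 in control islets. This spread allowed a second question, namely which genes follow Pdx1 between arrays of the same genotype.

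For that question each gene was fitted with 3 group means and the array's Pdx1 level, so its slope is the log2 change per log2 unit of Pdx1 inside a group. Of 19937 other genes 261 had a slope that passed, 1.31%, with 174 positive (0.873%) and 87 negative (0.436%). At an unadjusted p under 0.05 in limma there were 2664. The median slope of all genes was -0.0041. The calls lean on IKK2-CA array 4, the array with the most Pdx1 in its group. Without it no gene passed, with 1583 at an unadjusted p under 0.05, and without the IKK2-CA group none passed either, with 2179 unadjusted. The count was 1028 without IKK2-CA array 5. It was 154, 172, 152, 78, 88 and 157 without IKK2-CA array 2, Pdx-1+/- arrays 2 and 3, and control arrays 2, 3 and 5, each left out alone. The slopes of Slc2a2, Glp1r and Nkx6-1 moved less, as given below. Other slopes moved more without IKK2-CA array 4: that of Mafa went from 0.59 to 0.8 and that of Gad1 from 0.58 to 0.83. Marker means moved with Pdx1 too. On IKK2-CA array 4 the deviations of the β-cell, myeloid, T and natural killer, and adipocyte means were 0.12, -0.16, -0.35 and -0.11. On IKK2-CA array 5, the array with the least Pdx1, they were -1.01, 1.06, 1.11 and 2.32. With the myeloid and T-cell marker levels in the fit 138 genes passed.

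Known targets of PDX1 were among the genes that followed it within groups. Of 15 measured targets 14 had a positive slope and 6 passed: Slc2a2, Nkx6-1, G6pc2, Glp1r, Wfs1 and Slc30a8, with a median slope of 0.39 over the list. Over all 19937 other genes 9701 slopes were positive, and 0.873% of the genes had a positive slope that passed. Slc2a2, the glucose transporter GLUT2 of rodent β-cells, read 8.88, 8.76, 8.78, 9.73 and 7.89 on IKK2-CA arrays 1 to 5. It read 9.37, 9.08, 9.52 and 9.23 on the Pdx-1+/- arrays and 10.30, 9.90, 11.28, 10.99 and 11.17 on the control arrays. Inside IKK2-CA islets it was highest and lowest on the same arrays as Pdx1, and in control islets its lowest and highest arrays were also those of Pdx1. Its slope was 1.21 (SE 0.14, limma adjusted p = 0.00467). Without IKK2-CA array 4 the slope was 1.21 with an adjusted p of 0.105, and without the IKK2-CA group it was 1.33 with 0.071. Without all 3 arrays that carried intestinal or adipocyte RNA the slope was 1.21 with an adjusted p of 0.0087.

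Glp1r, the receptor for the incretin GLP-1, read 10.97, 11.14, 10.84, 11.67 and 10.37 in IKK2-CA, 11.47, 11.54, 11.64 and 11.33 in Pdx-1+/- and 11.76, 11.64, 12.24, 12.49 and 12.36 in control islets. Again the 4th IKK2-CA array was the highest of its group and the 5th the lowest. Its slope was 0.83 (SE 0.10, limma adjusted p = 0.00467), and without IKK2-CA array 4 it was 0.81 with an adjusted p of 0.105. Nkx6-1, a homeodomain factor of β-cell identity, read 7.72, 7.94, 7.45, 8.67 and 7.40 in IKK2-CA, 8.21, 8.44, 8.23 and 7.73 in Pdx-1+/- and 8.47, 8.15, 9.07, 8.90 and 8.96 in control islets. Its groups overlapped, and its slope was 0.93 (SE 0.11, limma adjusted p = 0.00467), or 0.84 without IKK2-CA array 4, with 0.105. The slopes of G6pc2, an islet glucose-6-phosphatase, Slc30a8, the zinc transporter of insulin granules, and Wfs1, an endoplasmic reticulum protein, were 0.71, 1.01 and 0.39.

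**Figure D3:**
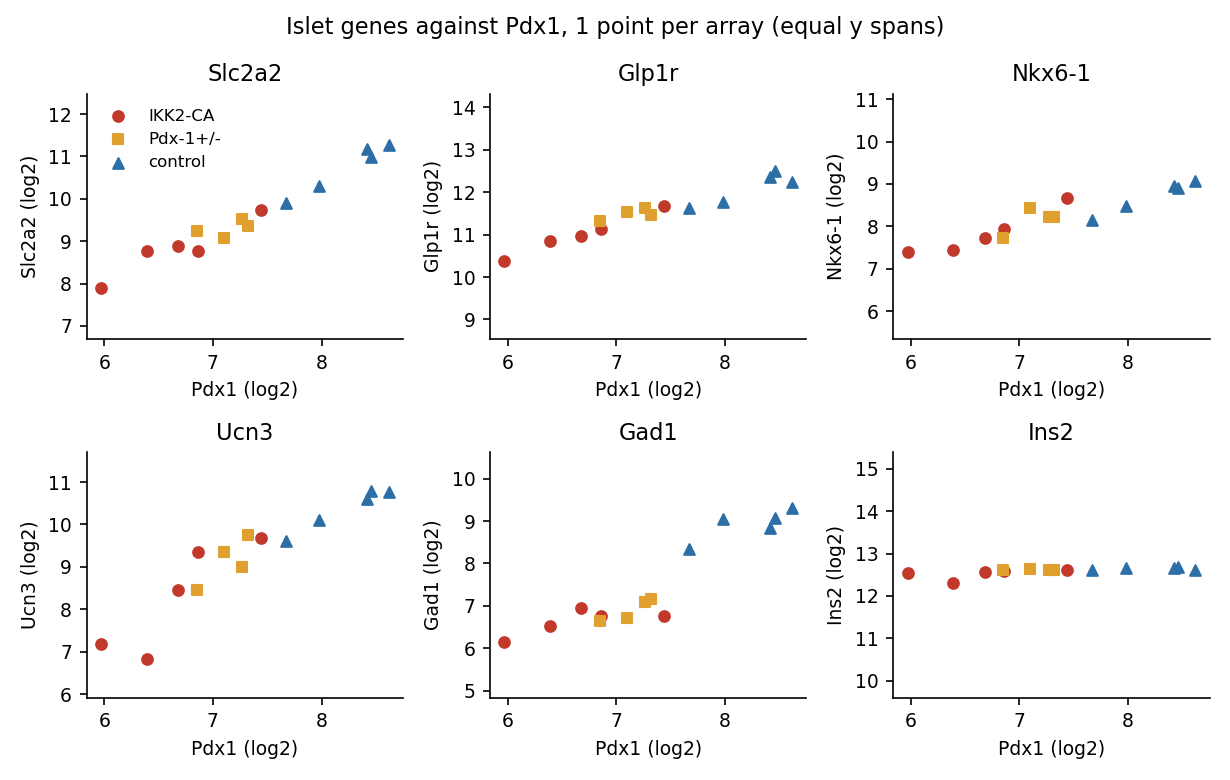
Each point is an array, with the log2 level of Pdx1 on the horizontal axis and that of the named gene on the vertical axis, coloured by group. Slc2a2, Glp1r, Nkx6-1 and Ucn3 run along with Pdx1 inside IKK2-CA and control islets, Gad1 splits control arrays from both mutant groups, and Ins2 is nearly flat; the vertical axes have equal spans.

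None of the 3 hormone targets measured passed the slope test. Ins2, the insulin gene measured here, read 12.31 to 12.62 in IKK2-CA, 12.60 to 12.64 in Pdx-1+/- and 12.60 to 12.68 in control islets, near the arrays' highest values of 13.64 to 13.73, where differences can be understated. Its slope on Pdx1 was 0.09 (95% confidence interval -0.07 to 0.25). Iapp, whose promoter window holds the 5 TAAT matches above, also read near the top, at 12.76 to 13.19 in IKK2-CA, 12.86 to 13.30 in Pdx-1+/- and 13.04 to 13.34 in control islets. Its slope was 0.30 (95% confidence interval 0.11 to 0.49, limma adjusted p = 0.112). Its log2 level differed by -0.16 in IKK2-CA against Pdx-1+/- islets and by -0.08 in Pdx-1+/- against control islets. Sst, the δ-cell hormone gene, had a slope of 0.38 (95% confidence interval 0.07 to 0.69) with an adjusted p of 0.24, about the median of the target list.

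Between genotypes most target levels were lower where Pdx1 was lower. In IKK2-CA against Pdx-1+/- islets 14 of the 15 were lower and none passed, with 3 at an unadjusted p under 0.05 in limma. The median difference was -0.21, against -0.01 over all genes. In Pdx-1+/- against control islets 14 were lower and none passed, with 10 at an unadjusted p under 0.05 (1 passed without control array 2), and the median was -0.45, against -0.0049 over all genes. In IKK2-CA against control islets 7 fell, namely Slc2a2, Mafa, G6pc2, Glp1r, Wfs1, Slc30a8 and Sst, and the median was -0.67, against a background of 1.56% of genes lower. That count of 7 was 2, 3 and 4 without control arrays 3, 4 and 5, each left out alone, 4 without IKK2-CA array 5, and 0 with the myeloid and T-cell marker levels in the fit. These comparisons share arrays, so their likeness is no separate support.

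Some of the factors that act on the Pdx1 gene varied with it within groups. Of 13 measured regulators 12 had a positive slope and 4 passed, against 0.873% of all genes with a positive slope that passed. Foxa2, a forkhead factor that opens chromatin at Pdx1 enhancers, had a slope of 0.49 (SE 0.09, limma adjusted p = 0.0244). Neurod1 and Nkx2-2, factors of endocrine differentiation, had slopes of 0.84 and 0.77, and Isl1, a LIM-homeodomain factor, 0.79. Slopes over the list ran from -0.34 to 0.84, with a median of 0.35, and no gene passed without IKK2-CA array 4. Mafa, which marks mature β-cells and is both a regulator and a target of PDX1, was among those that did not pass. Its slope was 0.59 (SE 0.22) with an adjusted p of 0.238, and that of Pax6 was 0.63 with 0.0822. Mafa read 6.83, 6.65, 6.83, 6.83 and 6.09 in IKK2-CA, 6.73, 6.92, 6.87 and 6.94 in Pdx-1+/- and 7.50, 7.25, 8.16, 8.77 and 7.64 in control islets. Every mutant array lay below every control array, but 4 of the 5 IKK2-CA arrays were almost level. It was the 1 regulator that passed between genotypes, falling by 1.22 on the log2 scale in IKK2-CA against control islets (SE 0.23, limma adjusted p = 0.0172). Over all genes 1.56% fell in that comparison.

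Partner proteins showed smaller slopes. Of 16 measured cofactors and modifiers 2 passed, Neurod1 and Meis2, a TALE-homeodomain partner whose slope was 0.37 (SE 0.08), and the median slope was 0.15. The share of all genes with a positive slope that passed was 0.873%. None of the 16 passed between any pair of genotypes, with 0 at an unadjusted p under 0.05 in IKK2-CA against Pdx-1+/-, 1 in Pdx-1+/- against control and 4 in IKK2-CA against control islets by limma. Among 20 measured β-cell transcription factors 19 had positive slopes, with a median of 0.46, and 6 passed: Nkx6-1, Nkx2-2, Neurod1, Isl1, Foxa2 and Mlxipl, the glucose-responsive factor ChREBP, at 0.89. These 6 too stand against 0.873% of all genes. Between genotypes 2 of the 20 fell, Mafa and Vdr, the vitamin D receptor. Both fell in IKK2-CA against control islets, where 1.56% of all genes fell. The count of 2 was 8 without IKK2-CA array 4 or control array 2, 0 without control array 3, 3 without Pdx-1+/- array 4, and 1 without any of the other arrays. It was 0 with the myeloid and T-cell marker levels in the fit. The 6 slope calls were 0 without IKK2-CA array 4, 2 without control array 2 or 3, and 14 without IKK2-CA array 5. Nkx2-2, Neurod1, Isl1 and Foxa2 among the 6 are also the regulators that passed, and Neurod1 is a partner as well. The counts of these lists are therefore not separate. In Pdx-1+/- against control islets none of the 20 passed, with 6 at an unadjusted p under 0.05, and in IKK2-CA against Pdx-1+/- islets none passed, with 2.

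**Figure D4:**
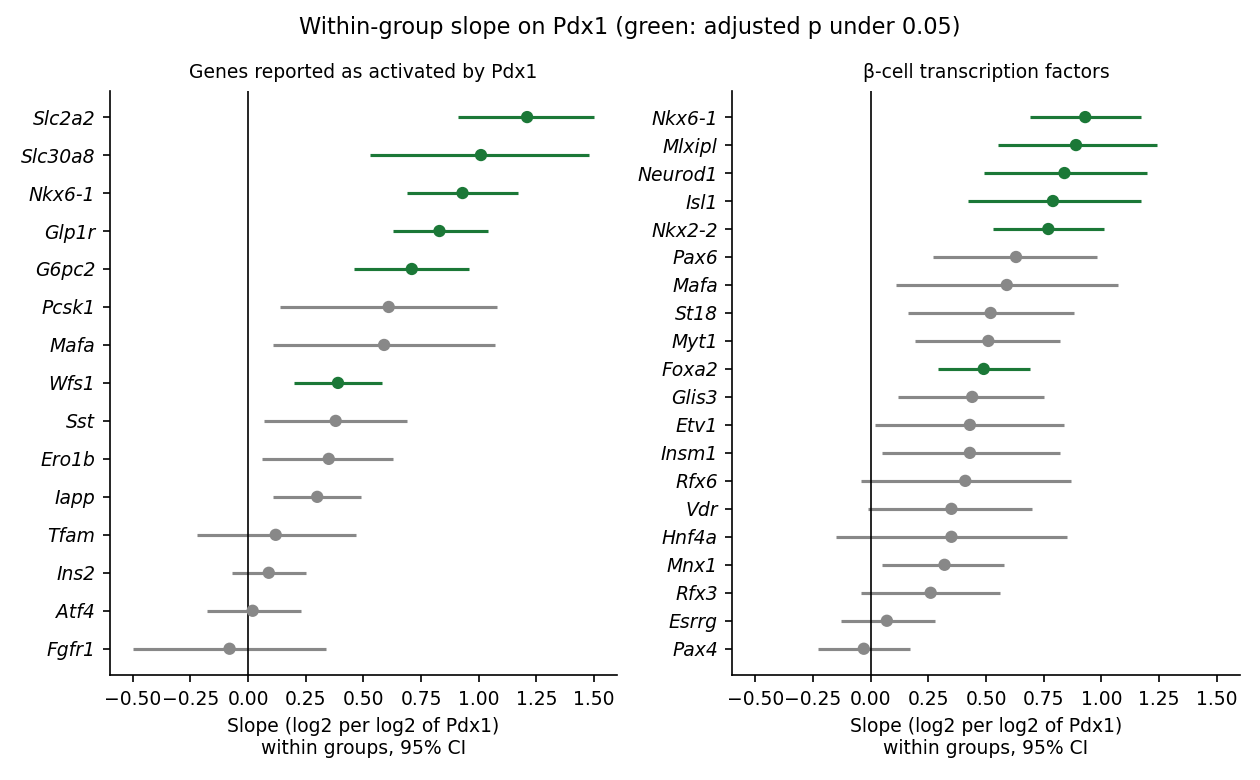
Points are slopes on Pdx1 inside groups, in log2 units per log2 unit of Pdx1, with 95% confidence intervals, for 15 PDX1 targets (left) and 20 β-cell transcription factors (right). Green marks an adjusted p under 0.05; Slc2a2 at 1.21 is the steepest target and Nkx6-1 at 0.93 the steepest factor, while the interval of Ins2 includes 0.

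Genes of glucose sensing and insulin secretion included Ucn3, which had the highest positive slope of the gene lists. Of 33 measured genes 30 had a positive slope and 11 passed, with a median of 0.48, against 0.873% of all genes with a positive slope that passed. The count of 11 was 0 without IKK2-CA array 4, 7 without control array 2 or 3, and 18 without IKK2-CA array 5. Ucn3, a peptide of mature β-cells, read 8.46, 9.35, 6.82, 9.68 and 7.19 in IKK2-CA, 9.76, 9.34, 9.0 and 8.46 in Pdx-1+/- and 10.11, 9.61, 10.77, 10.80 and 10.59 in control islets. Its IKK2-CA arrays were the most scattered, with 2 arrays far below all others, and its slope was 1.82 (SE 0.28, limma adjusted p = 0.012). Ffar1, a fatty acid receptor that enhances insulin release, had a slope of 1.15. Both subunits of the ATP-sensitive potassium channel passed, Abcc8 at 0.79 and Kcnj11 at 0.54, as did Gjd2, the gap junction protein that couples β-cells, at 1.14. Scg2, a granule protein, had a slope of 0.52. Slc2a2, G6pc2, Glp1r and Slc30a8 passed on this list and on the target list, so the counts of these lists overlap.

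In Pdx-1+/- against control islets 4 of the 33 function genes fell, Gad1, Th, Sytl4 and Nnat, and 3 of these did not pass the slope test. Over all genes 0.0953% passed in this comparison, all of them lower. The list was chosen with earlier results of these data known, so its count is no separate support. Gad1, which makes GABA, read 6.96, 6.75, 6.52, 6.76 and 6.14 in IKK2-CA, 7.17, 6.71, 7.09 and 6.64 in Pdx-1+/- and 9.06, 8.34, 9.32, 9.08 and 8.83 in control islets. All mutant arrays were at least 1 log2 unit below the lowest control array, and the mutant groups overlapped. Gad1 fell by 2.03 in Pdx-1+/- against control islets (SE 0.20, limma adjusted p = 0.000791), and its slope was 0.58 (SE 0.15) with an adjusted p of 0.0816. Without IKK2-CA array 4 the Gad1 slope was 0.83 (SE 0.16) with an adjusted p of 0.133. Without the IKK2-CA group it was 0.83 with 0.167, so the missed threshold does not show that Gad1 departs from Pdx1 within groups.

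Th, tyrosine hydroxylase of catecholamine synthesis, read 6.34, 6.14, 6.18, 6.13 and 5.72 in IKK2-CA, 6.27, 6.27, 6.65 and 6.30 in Pdx-1+/- and 7.81, 7.20, 7.38, 7.96 and 7.62 in control islets. Here too no mutant array reached a control array. Th fell by 1.22 in Pdx-1+/- against control islets (SE 0.16, limma adjusted p = 0.00363), while its slope was 0.25 (95% confidence interval -0.09 to 0.59). Sytl4, the granule-docking protein granuphilin, did both: it fell by 1.66 (SE 0.21, limma adjusted p = 0.00363), and its slope was 0.77 (SE 0.10, limma adjusted p = 0.00562). Nnat, an endoplasmic reticulum proteolipid of β-cells, fell by 0.89 with an adjusted p of 0.0485, and its slope was 0.36 with 0.25. In IKK2-CA against control islets 16 of the 33 fell, these 4 included, or 8 and 9 without control arrays 3 and 4, each left out alone. Over all genes 1.56% fell in that comparison. The list was chosen with earlier results known, so the count of 16 is no separate support either. With the myeloid and T-cell marker levels in the fit 3 of the 33 fell. In IKK2-CA against Pdx-1+/- islets none passed, with 6 at an unadjusted p under 0.05 in limma.

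The genes most like Pdx1 across arrays were found by Pearson's r after subtracting group means, over 14 arrays that share 3 groups. The 10 highest were Mapk8ip1, Rph3al, Dcaf12l1, Glp1r, Celf3, Agbl4, Tspan13, Slc2a2, Nkx6-1 and Sytl4, with r of 0.93 to 0.96 and Spearman's rho of 0.85 to 0.96. Without IKK2-CA arrays 4 and 5, which lie farthest from their group mean of Pdx1, r was 0.86 to 0.98. The genes were picked for r, so it carries no p. Mapk8ip1, a JNK scaffold protein of islets and neurons, read 7.99, 8.02, 7.85, 8.24 and 7.75 in IKK2-CA, 8.32, 8.26, 8.22 and 8.02 in Pdx-1+/- and 8.30, 8.19, 8.54, 8.53 and 8.44 in control islets. It followed Pdx1 over a narrow range, with a slope of 0.37 (SE 0.06). Rph3al, an effector of granule exocytosis, had a slope of 0.54.

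Without subtracting group means, the 10 highest were Slc2a2 at 0.983, Car10, Wsb2, G6pc2, Glp1r, Sytl4, Ociad2, Ffar1, 0610040J01Rik and Cog1 at 0.967, and 3 of these stood on the other list. At the other end, the 5 lowest r after group means were those of Cdk9, Xcl1, Slc8b1, Rasa4 and Ifngr2, between -0.91 and -0.89. Xcl1, a chemokine of T and natural killer cells, read 5.99, 5.98, 6.12, 5.59 and 6.58 in IKK2-CA, 5.82, 5.83, 5.66 and 5.81 in Pdx-1+/- and 5.93, 6.10, 5.50, 5.85 and 5.84 in control islets. It was lowest on IKK2-CA array 4 and highest on IKK2-CA array 5, the reverse of Pdx1 in that group. Its slope was -0.55 (SE 0.09, limma adjusted p = 0.0137).

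Genes of the other islet endocrine cells and genes that β-cells keep low were set beside Pdx1 in the same way. None of 10 other-endocrine genes passed the slope test, with 2 at an unadjusted p under 0.05 in limma and a median slope of 0.22. Over all 19937 other genes 2664 slopes reached that unadjusted p, so small counts at it are not read as a result. Gcg, the glucagon gene of α-cells, had a slope of 0.09 (95% confidence interval -0.12 to 0.30) with levels near the top of the arrays' range. In IKK2-CA against control islets Sst and Rbp4, a retinol-binding protein, fell by 0.67 and 0.76, where 1.56% of all genes fell and 0.682% rose. Of 16 genes kept low in β-cells none passed the slope test, with 3 at an unadjusted p under 0.05, and 1, the hyaluronan receptor Cd44, rose by 1.03 in IKK2-CA against control islets (SE 0.25, limma adjusted p = 0.0463). Leukocytes express Cd44 as well, and the share of their RNA in its level was not tested.

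The 5 nearest measured genes on each side of Pdx1 on chromosome 5 were examined because the driver allele sits at that locus. In RefSeq order they were Gtf3a, Mtif3, Lnx2, Polr1d and Gsx1 before it and Cdx2, Urad, Flt3, Pan3 and Flt1 after it. In Pdx-1+/- against control islets none of the 10 passed and none had an unadjusted p under 0.05 in limma, with differences of -0.10 to 0.24. Flt3, a cytokine receptor of blood progenitors and dendritic cells, read 6.48, 6.27, 6.67, 5.91 and 7.51 in IKK2-CA, 5.32, 4.96, 5.39 and 5.39 in Pdx-1+/- and 5.15, 5.65, 5.16, 5.28 and 5.24 in control islets. All IKK2-CA arrays stood above all others, and the array with the least Pdx1 had the most Flt3. Flt3 rose by 1.27 in IKK2-CA against control islets (SE 0.22, limma adjusted p = 0.0111), and its slope on Pdx1 was -0.76 (SE 0.16, limma adjusted p = 0.038). Ptprc, the leukocyte marker CD45, moved the same way, at 7.61, 8.08, 8.42, 7.54 and 9.24 on IKK2-CA arrays 1 to 5, against 6.84 to 7.47 on control arrays, and its part in the Flt3 values was not tested.

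**Figure D5:**
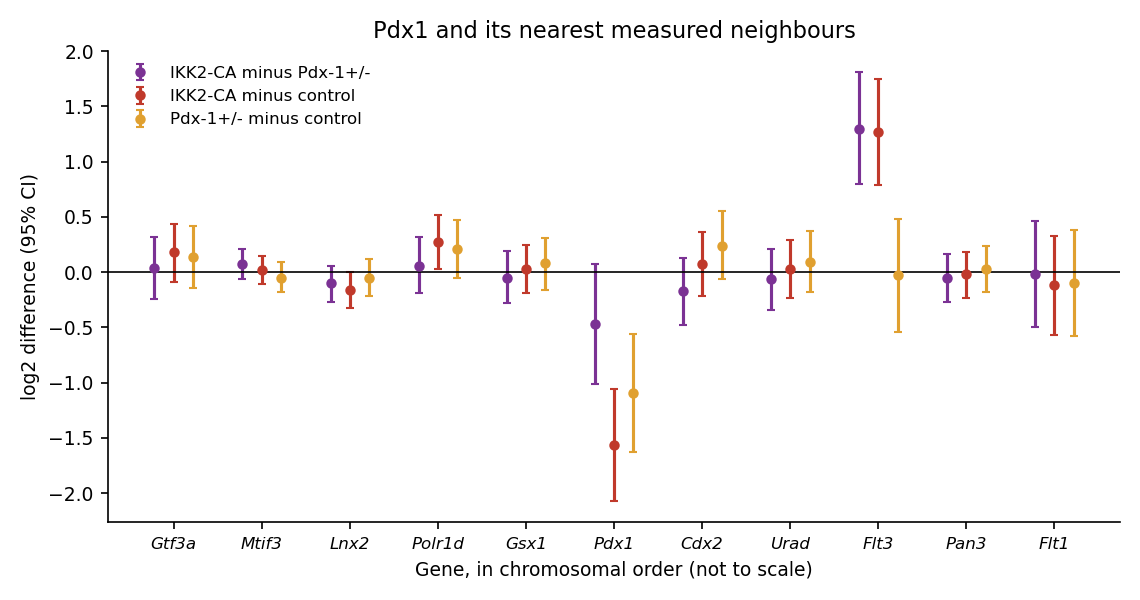
Points are log2 differences with 95% confidence intervals for Pdx1 and its 5 nearest measured genes on each side, in chromosomal order and not to scale, for the 3 comparisons. Pdx1 lies at -1.09 in Pdx-1+/- minus control while its neighbours lie between -0.10 and 0.24, and Flt3 stands out in both comparisons of IKK2-CA islets.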

How the data were processed

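Islet RNA was hybridised to Mouse Gene 1.0 ST arrays, 5 of IKK2-CA, 4 of Pdx-1+/- and 5 of control samples, grouped by their titles. The deposited values are log2 signals that the authors summarised with the robust multichip average (RMA), per the labels' protocols; Affymetrix Expression Console is named in the submitters' processing notes. That the log has base 2 was read from the range and near-equal medians of the values. RMA adjusts background and can understate differences of dim genes and of genes near the top. No column was left unused. Precision is limited by signal over background and by the number of arrays.

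Of 35556 transcript clusters, 23410 appeared in the platform annotation at hand, and the 21789 with 1 gene symbol were kept. For 999 genes with several clusters the one with the highest mean was taken, leaving 19938 genes. No low-signal filter was applied. Some members of the lists are not reported here.

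The lmFit and eBayes functions of limma 3.58.1, run under R 4.3.3, tested differences among the 3 group means over 14 arrays; residual degrees of freedom were 11 and the prior added 3.46. The slope fit added the Pdx1 log2 level of each array and tested its coefficient. The adjusted p is Benjamini and Hochberg's over all genes, with a threshold of 0.05. For the main differences between groups, list counts at an unadjusted p are given without the count over all genes. Those counts therefore cannot be read as an excess. Confidence intervals are at 95%, and exact permutation tests of Pdx1 are two-sided. The fits were tested on simulated data. Promoter letters came from RefSeq (GRCm38.p6), and figures were drawn with matplotlib 3.10.9 in Python 3.11.15 with pandas 2.3.3.

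The gene and its lists of regulators, partners, targets, β-cell genes and markers were chosen with earlier results of these data known. Genes were named by rule: the 10 highest and 5 lowest in r with Pdx1 after group means, the 10 highest without them, the 5 nearest genes on each side, and up to 6 members of each list with the largest difference or slope. Genes outside that rule, such as Scg2 and Isl1 where a count is spelled out, were named after their values were seen.

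Replicate numbers recur in the groups. Same-number arrays, after group means, correlated between -0.391 and 0.356. Over 0.1 were 1 of 4 pairs in Pdx-1+/- against control islets, 1 of 5 in IKK2-CA against control islets and 0 of 4 in IKK2-CA against Pdx-1+/- islets. The main fits did not pair arrays by number, and these correlations do not settle whether the numbers pair them. Alternatives were median centring, quantile normalization, a trended and robust prior, leaving out the lowest 30% of genes, every cluster, the mean of clusters, array weights, the number as a block, acinar markers as a covariate, 2 groups alone, slopes without group means, without IKK2-CA array 5 and Pdx-1+/- array 4, and without each array in turn. Added after the data were seen were fits also without control array 3, with myeloid and T-cell markers, and without the IKK2-CA group.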

Additional observations from a re-analysis of the deposited data

Results flagged for a closer look

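Dixon's test for a lone array, at the 95% level, was run on 33 genes and 10 marker lists, in 129 tests of a group, and 12 met it. Chance flags about 1 in 20 groups. No Pdx1 array was among them.

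Among genes that follow Pdx1, Pdx-1+/- array 4 read low for Celf3, at 7.95 against 8.28 to 8.35 on the group's other 3 arrays, and for Ffar1, at 6.71 against 7.63 to 7.79. Xcl1 was low on Pdx-1+/- array 3, at 5.66 against 5.81 to 5.83. Among the chromosomal neighbours, Lnx2 read 7.83 on Pdx-1+/- array 4 against 7.88 to 7.89, and Gsx1 read 5.41 on Pdx-1+/- array 1 against 5.72 to 5.75. Flt3 read 4.96 on Pdx-1+/- array 2 against 5.32 to 5.39, and 5.65 on control array 2 against 5.15 to 5.28.

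Among marker means, given as log2 deviations, intestinal markers stood at 2.78 on Pdx-1+/- array 4 against -0.34 to -0.23, and at 1.27 on control array 3 against -0.46 to -0.30. Adipocyte markers stood at 2.32 on IKK2-CA array 5 against -0.40 to -0.11, and acinar markers at -0.34 on the same array against 0.04 to 0.16. Endothelial markers stood at 0.35 on control array 4 against -0.22 to -0.08.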

How the results depend on the processing

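The Pdx1 difference kept its sign in each of the 3 comparisons under the alternatives run. The signs of other genes' differences were not followed there. For IKK2-CA against Pdx-1+/- islets, Pdx1 was -0.02 with leukocyte markers and ranged from -0.66 to -0.30 when single arrays were left out, with adjusted p of 0.545 to 1 under the other alternatives, and the counts of targets, factors and function genes were 0 in every alternative. For Pdx-1+/- against control islets, Pdx1 was -1.13 with array weights and -1.03 with leukocyte markers, both past the threshold, and -1.23 to -1.0 when single arrays were left out; adjusted p ran from 0.0121 to 0.656. Targets numbered 1 with either of those settings and 0 to 1 without single arrays, and factors and neighbours 0 throughout. Function genes numbered 3 to 6, except for 2 with the replicate number as a block. For IKK2-CA against control islets, Pdx1 was -1.05 with leukocyte markers, no longer past the threshold, and -1.76 to -1.39 without single arrays; adjusted p ran from 0.000319 to 0.0679. Targets numbered 4 with only 2 groups, 2 without the 3 arrays that stand apart, 0 with leukocyte markers and 2 to 10 without single arrays. Factors numbered 12 with array weights, 4 with acinar markers, 1 without IKK2-CA array 5 and Pdx-1+/- array 4, 1 with only 2 groups, 0 without the 3 arrays, 0 with leukocyte markers and 0 to 8 without single arrays. Function genes numbered 10 without the 3 arrays, 3 with leukocyte markers and 8 to 20 without single arrays.

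Slope calls over all genes numbered 74 with array weights, 842 with acinar markers, 856 without IKK2-CA array 5 and Pdx-1+/- array 4, 2036 without group means, 584 without the 3 arrays, 138 with leukocyte markers, 0 without the IKK2-CA group, and 0 (without IKK2-CA array 4) to 1028 (without IKK2-CA array 5) for single arrays. Targets with a slope call numbered 11 without group means, 0 without the IKK2-CA group and 0 to 7 without single arrays. Factors numbered 3 with array weights, 10 with acinar markers, 12 without the pair of arrays, 15 without group means, 0 without the IKK2-CA group and 0 to 14 without single arrays. Function genes numbered 18 with acinar markers, 26 without group means, 0 without the IKK2-CA group and 0 to 18 without single arrays. At an unadjusted p under 0.05 in limma, 11 of 15 targets, 16 of 20 factors and 26 of 33 function genes had slopes without the IKK2-CA group. Over all 19937 other genes that count was 2179.

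With the replicate number as a block, Pdx1 was -0.41, -1.16 and -1.56 in the 3 comparisons. Function genes numbered 2 in Pdx-1+/- against control islets; in IKK2-CA against control islets targets numbered 4 and factors 1. Slope calls under the block numbered 21 over all genes, 3 targets, 1 factor and 5 function genes. The cause of these changes was not tested.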

Other observations

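The 3 comparisons were also fitted with the array's Pdx1 level as a further term, a fit chosen after seeing the data. Pdx1 ranges of control and mutant arrays do not overlap, so a comparison with control islets extends the slope beyond the arrays it was measured on. For IKK2-CA against Pdx-1+/- islets, where the ranges do overlap, the median difference of the targets was -0.02 with the term and -0.21 without it. For β-cell transcription factors it was 0.06 with the term and -0.18 without, and for function genes -0.02 with the term and -0.27 without.

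For Pdx-1+/- against control islets, the list medians turned positive with the term, at 0.06 for targets, 0.23 for factors and 0.11 for function genes, against -0.45, -0.29 and -0.43 without it. Slc2a2 differed by -0.11 with the term (95% confidence interval -0.53 to 0.32). Others changed sign: Nkx6-1 stood at 0.46 with the term (95% confidence interval 0.11 to 0.81) and -0.56 without it, Glp1r at 0.31 (0.01 to 0.61) and -0.61, and Ucn3 at 0.75 (-0.12 to 1.62) and -1.24. None of these passed, with limma adjusted p of 0.665, 0.839 and 0.961. Gad1 still differed by -1.40 (95% confidence interval -1.86 to -0.93), with a limma adjusted p of 0.116. The differences of Th and Sytl4 were -0.94 and -0.81, with adjusted p of 0.468 and 0.193. With the term no gene passed in this comparison, with 1142 at an unadjusted p under 0.05 in limma, and 7 passed without IKK2-CA array 5 and Pdx-1+/- array 4.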
